A study of Homo sapiens with 8 samples.

Results

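Pairs of poly(A) sites with a proximal site known only by its genome position and a distal site named after an annotated transcript were examined in genes with several sites. A pair was taken where the deposited comparisons of all 3 knockdowns (KD) listed it, where its proximal name was a position and its distal name a transcript, and where the gene had at least 2 pairs shared by the comparisons. This gave 1050 of 4692 shared pairs (22.4%), in 521 of 2639 genes (19.7%). All 521 genes are annotated as protein-coding. The choice used names and not measured values.

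The cells were MDA-MB-231, a line derived from human triple-negative breast cancer, with CRISPR interference, in which dCas9-KRAB, a Cas9 that cannot cut and carries a repressor domain, silences the promoters that 2 guides point to. Control cells carried a pair of non-targeting guides (sgCTRL-sgCTRL). HNRNPC KD cells carried sgHNRNPC-sgCTRL, PABPC4 KD cells sgCTRL-sgPABPC4 and double KD cells sgHNRNPC-sgPABPC4, with 2 samples in each of the 4 groups and 8 samples in all. Sequencing of RNA 3′ ends used QuantSeq REV, whose reads start at the poly(A) tail. The deposited files held pair values of the 3 KD groups against the same 2 control samples and none per sample. HNRNPC and PABPC4 had no pair among the shared ones chosen here, so their depletion was not checked.

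A gene with several poly(A) signals can end its transcripts at any of them, and the choice sets how much 3′ untranslated region (3′ UTR) the mRNA carries, or, for a site inside an intron, which last exon it has. Cleavage is directed by the hexamer AATAAA or the variant ATTAAA shortly upstream of the cut, read by the cleavage and polyadenylation specificity factor, together with U-rich and GU-rich stretches around it. HNRNPC is a nuclear protein that binds runs of U in pre-mRNA, and PABPC4 is a member of the cytoplasmic poly(A)-binding protein family.

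The annotated ends show what the distal member of these pairs looks like in sequence. Of 607 distinct distal ends, 535 matched a transcript of the same version in Gencode release 44 on hg38 (88.1%). AATAAA or ATTAAA stood in the last 50 nt, on the transcript strand, at 419 of them (78.3%), and at 67.9% of the 2979 matched ends of all shared pairs. The 20 nt after the cut were A-rich (6 A in a row, or 12 or more A in all), a stretch on which an oligo(dT) primer can also start, at 5.42% of the members' distal ends and at 10.6% of all matched ends. The transcript was of the protein-coding type at 87.3% against 75%. A pentamer TTTTT lay in the last 50 nt at 20.7% against 18.4%. These shares are descriptions, and the ends of the members are part of the larger set.

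The last 30 bases of distal ends are shown for named genes, 5′ to 3′, from hg38 with the coordinates on that build and the strand, and with a signal hexamer in capitals. The first set belongs to genes whose pair moved toward this end in double KD, and BIRC5 is described under HNRNPC KD.
WWC1, chr5:168469730-168469759, plus strand: tccatcAATAAAgtggcctttcaaaaagaa
PDLIM5, chr4:94668198-94668227, plus strand: taAATAAAtgactgcattgttgtaaatgag
DESI1, chr22:41598028-41598057, minus strand: aatgcAATAAActcatttctgcctgctgca
SNAP29, chr22:20891185-20891214, plus strand: gcaagaAATAAAaatgtcagtgcatttaaa
EIF2AK2, chr2:37099210-37099239, minus strand: cttgaAATAAAtgtttattagaaaaaccaa
BIRC5, chr17:78225607-78225636, plus strand: gccAATAAAgtctcatgtggttttatctac
ZNF526, chr19:42228172-42228201, plus strand: tctgggcaacagtgcaagaccctgtcactt

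The second set belongs to genes whose pair moved away from the distal end in double KD. None of the 3 ends printed here held either hexamer in its last 50 nt, and neither did that of ZNF526.
METTL2A, chr17:62450793-62450822, plus strand: gcctgggtgacaagagcgaaactgcatctc
LRP10, chr14:22880363-22880392, plus strand: agactccttctccaaaaaaaaagaaaagaa
PSMB2, chr1:35602634-35602663, minus strand: tagctgggcgtggtggcacgcacccctagt
The PSMB2 transcript is of a type with no defined coding sequence, and the genome after the ZNF526, TMPO, SMURF2 and VPS29 ends was A-rich. That rule reads only the bases after the cut, and the LRP10 and SEC24B ends did not meet it. Before the cut, however, the SEC24B transcript finished in a run of A. The LRP10 transcript finished mostly in A, broken by G. Whether an oligo(dT) primer started inside these ends was not tested. Other genes described below also moved toward the proximal site in double KD. Of these, TMPO, SEC24B, VPS29 and TMEM33 had neither hexamer in the last 50 nt. HMGB3, ANTXR2, MYO10, EIF5, TIAL1, NEDD4L, FOSL2 and PHLDA1 did have AATAAA, starting 15 to 36 nt before the end, and the CFAP36 end was not matched. Of 734 member pairs with a hexamer at the distal end, 41 passed the threshold of p 0.01 in double KD (5.59%), 27 of them toward that end. Of 189 without one, 14 passed (7.41%), 6 of them toward that end. Of 39 member pairs with an A-rich stretch after the distal end 6 passed p 0.01 in double KD (15.4%), 4 of them toward distal, and of the 884 others 49 (5.54%). These splits were counted after values were seen and were not tested.

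The proximal sites were 954 positions. They are given as the deposited comparisons name them. Just 129 of them (13.5%) lay inside their own gene on hg38, so that another build underlies them, and no sequence is shown for them. Of 569 pairs formed by 2 positions of the same member gene, 566 had the second position downstream on the gene's strand. The other 3 belonged to NIPA2, whose site names carry minus and whose strand entry reads plus. The median distance within such pairs was 1421 nt and the middle 50% ran from 669 to 3110 nt.

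Most member genes had few sites. Of the 521 genes, 396 had 3 shared sites, 98 had 4, and the most was 7. A gene held 1 member pair in 121 cases, 2 in 308 and 3 in 67, and the remaining 25 held 4 to 7. In 442 genes all member pairs led to 1 distal end, so that several positions were read against the same end. Member pairs of a gene therefore share reads and are not replicates of each other.

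Normalised reads per site and group were solved from the deposited values and p-values at all 521 member genes. They are sums of both samples of a group. In control the median was 8.86 reads at a proximal position and 19.6 at a distal end, and in double KD 9.96 and 22.2. A proximal position held a median of 13.3% of the reads of its gene in control (middle 50%, 4.57 to 38.7%), or 8.54% in genes with at least 50 control reads, and a distal end 29.4% (10.3 to 61.2%). The same medians were 14% and 28.8% under HNRNPC KD, 13.4% and 29.5% under PABPC4 KD, and 14.3% and 31.1% under double KD. Summed over a gene, the positions held most of the control reads in 234 genes (44.9%) and the annotated distal ends in 218 (41.8%). The position-named proximal sites of member pairs thus held most reads in fewer than 50% of these genes. Whether such a position coincides with an annotated transcript end was not tested. The site with most reads differed from that of control in 73 genes under HNRNPC KD, 42 under PABPC4 KD and 66 under double KD, counts with no test behind them.

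Shifts between the sites of a pair are given as logAPAR, the natural log of the ratio of proximal to distal reads in KD divided by that ratio in control, so that values below 0 are shifts toward the distal end. The test was the deposited Wald p-value of each pair, taken at p 0.01, and the adjusted p-value over all pairs of a comparison at 0.05. The p-values cover counting error and not the spread between samples.

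Double KD moved more of these pairs than either single KD. Past p 0.01 were 60 of 1050 member pairs in 56 genes, or 5.71%, where 4.33% of all 6461 pairs in the double KD comparison passed. Toward the distal end had moved 37 of them and toward the proximal position 23. Over all pairs past p 0.01 in that comparison, 160 had moved toward distal and 120 toward proximal. At an adjusted p of 0.05 there were 29 member pairs in 27 genes, 2.76% against 2.23% of all pairs, 22 toward distal and 7 toward proximal. Over all pairs these directions had 92 and 52. Pairs of the same kind in genes with 1 shared pair gave 5.37% past p 0.01, so the member share lay close to those of the whole comparison and of the simpler genes. The median logAPAR was −0.0640 over the members and 0.00853 over all pairs.

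HNRNPC KD moved 34 member pairs past p 0.01, or 3.24% against 2.08% of all pairs, 17 in each direction and in 32 genes. Pairs of the same kind in genes with 1 shared pair gave 2.22%. Over all pairs past p 0.01, 67 moved toward distal and 55 toward proximal. At an adjusted p of 0.05 there were 2, BIRC5 and DESI1, both toward the distal end, or 0.190% against 0.427% of all pairs. PABPC4 KD moved 8 member pairs, 0.762% against 0.756% of all pairs, 4 in each direction. Over all pairs 20 moved toward distal and 25 toward proximal. None of the members passed an adjusted p of 0.05 in PABPC4 KD by the deposited values, where 0.0168% of all pairs did. An unadjusted p under 0.05 was found at 39 of the 1050 member pairs. The median logAPAR of members was −0.0159 in HNRNPC KD and −0.0261 in PABPC4 KD, against 0.00822 and 0.00989 over all pairs. No gene had member pairs past p 0.01 in both directions in any of the 3 comparisons. Few genes could have shown this, because it takes at least 2 called pairs in a gene. Double KD had 4 such genes, HNRNPC KD 2 and PABPC4 KD 0. Most member genes also read all their pairs against a shared distal end. Whether pairs of a gene move alike was therefore not tested by this count.

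**Figure D1:**
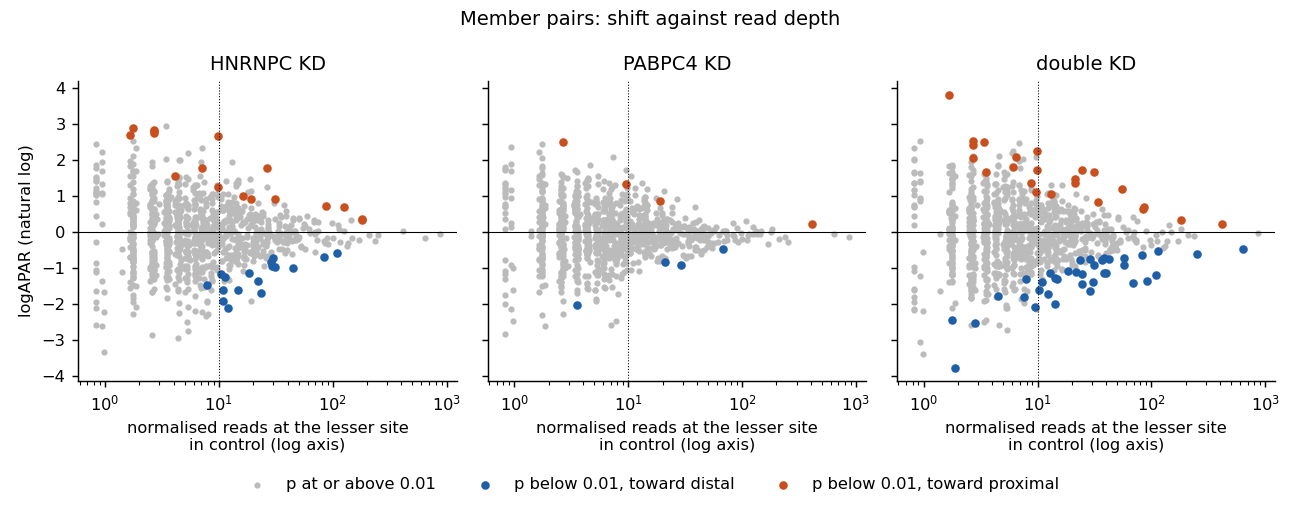
logAPAR (natural log, y axis) of the 1050 member pairs against the control reads of whichever site of the pair had fewer (x axis, log scale), 1 panel for each KD. Coloured points passed p 0.01, blue toward the distal end and orange toward the proximal position, and the dotted line marks 10 reads. Low reads go with wide scatter, and the smallest called shifts lie toward the right of each panel.

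Depth limited these counts. At the median Wald error, a member pair needed an absolute logAPAR of 1.85 under HNRNPC KD, 1.79 under PABPC4 KD and 1.73 under double KD to reach p 0.01. The lesser site had fewer than 10 control reads at 722 pairs, of which 2.63% passed in double KD, and at least 10 at 328 pairs, of which 12.5% passed. For HNRNPC KD these shares were 1.39% and 7.32%, and for PABPC4 KD 0.416% and 1.52%. A shift at the shallower 722 pairs was mostly not detectable at this depth.

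Most called shifts in double KD went away from the site that had held more reads in control. In control the proximal position had more reads than the distal end in 29 of the 37 pairs that moved toward distal and in 4 of the 23 that moved toward proximal, where 37.9% of all member pairs did. Pairs that moved toward distal had a median of 0.479 times the control reads at the proximal position and 1.74 times at the distal end. Those that moved toward proximal had 1.66 times at the position and 0.422 times at the end. Over all member pairs the medians were 1.03 and 1.10. Reads fell at the proximal position in 34 and rose at the distal end in 33 of the 37 pairs. Gene reads were under 0.5 times control for 9 of these 37 pairs and 3 of the 23, against 56 of all 1050 pairs. These counts follow from which pairs were called, were made after values were seen and carry no test. Fewer cells expressing a gene and less of its RNA per cell cannot be told apart in bulk samples.

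**Figure D2:**
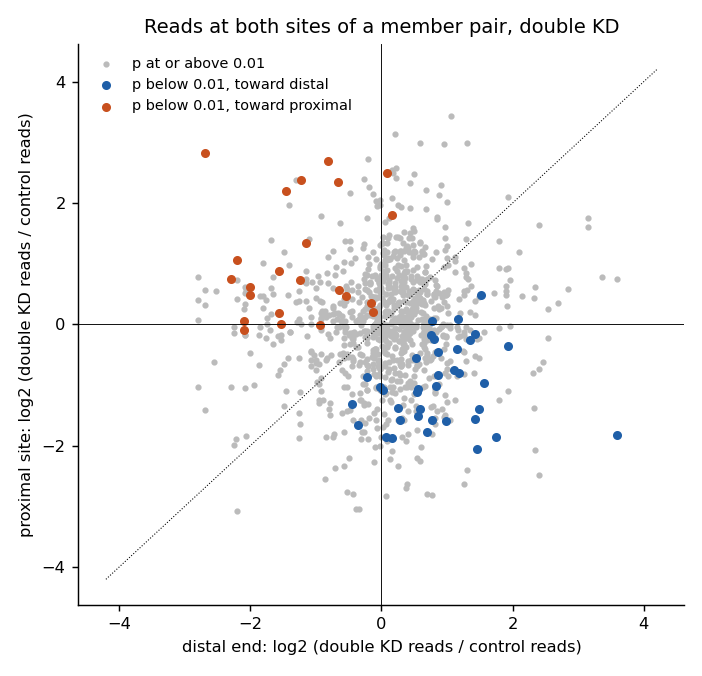
Reads at the proximal position (y axis) and at the distal end (x axis) of each member pair, as log2 of double KD over control. Blue points passed p 0.01 toward distal and lie mostly at the lower right, with proximal reads down and distal reads up. Orange points passed toward proximal and lie mostly at the upper left, and grey points did not pass.

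Among the pairs that moved toward the distal end, WWC1, which encodes the KIBRA scaffold of the Hippo pathway, had the smallest p. Its position chr5:167850177 had 3764 normalised reads in control, 3068 under HNRNPC KD, 2970.2 under PABPC4 KD and 1038 under double KD, while the distal end had 91.1, 103, 94.2 and 95.4. The position was thus lowest in double KD, while the end stayed near its control level in each group. Its logAPAR was −1.33 ± 0.15 (Wald SE) in double KD (deposited adjusted p 3.53e-16), −0.33 ± 0.15 in HNRNPC KD and −0.27 ± 0.15 in PABPC4 KD. The position's share of gene reads fell from 97.6% (Wilson 95% interval, 97 to 98%) to 90.8% (89 to 92.4%).

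PDLIM5, a protein with PDZ and LIM domains that binds the actin cytoskeleton and a gene the study follows up, also lost reads at its position in double KD. The position chr4:95586055 had 1444, 1153, 1249 and 396 reads in control, HNRNPC KD, PABPC4 KD and double KD, and the distal end had 68.3, 40.9, 92.6 and 76. The single KDs lay on opposite sides of 0, with a logAPAR of 0.29 ± 0.20 in HNRNPC KD (p 0.155) and −0.45 ± 0.16 in PABPC4 KD (p 0.00612, adjusted p 0.951). In double KD it was −1.40 ± 0.18 (adjusted p 1.60e-12). The second position of PDLIM5, chr4:95586949, had a logAPAR of −0.73 ± 0.43 in double KD (p 0.0945), so the call rests on 1 of 2 pairs with the same end.

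DESI1 encodes an enzyme that removes the small modifier SUMO from proteins. Reads at chr22:41995540 were 355, 391, 302 and 199 in the same order of groups, and at the distal end 109, 213, 67.5 and 197. Here the distal end gained in both groups with HNRNPC KD, and position and end held similar shares in double KD, 48.1% and 47.6%. logAPAR was −0.58 ± 0.14 under HNRNPC KD (adjusted p 0.0109), 0.31 ± 0.17 under PABPC4 KD (p 0.0710) and −1.17 ± 0.15 under double KD (adjusted p 2.46e-12).

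SNAP29 is a SNARE protein of membrane fusion, active in autophagy. Its position chr22:21234163 had 746, 651, 599 and 284 reads and its distal end 31, 31.4, 21.6 and 46.5. Neither single KD moved it past p 0.01 (logAPAR −0.15 ± 0.26 and 0.14 ± 0.29), and double KD gave −1.37 ± 0.24 (adjusted p 3.59e-06). EIF2AK2, the kinase PKR that senses double-stranded RNA and blocks translation initiation, had 233, 205, 206 and 89 reads at chr2:37330344 and 14.1, 21.9, 14 and 39.3 at the end. Its logAPAR of −1.99 ± 0.33 in double KD (adjusted p 7.96e-07) was the most negative of the genes named in this direction.

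ZNF526 and C5orf24 were also named in this direction. ZNF526, a zinc finger gene, had 1615, 1639, 1521 and 567 reads at its position, against 24.3, 33.7, 30 and 35.6 at its end (logAPAR −1.43 ± 0.27 in double KD, adjusted p 1.73e-05). C5orf24 went from 1038 to 418 reads at its position and from 252 to 185 at the end (−0.60 ± 0.11, adjusted p 1.85e-05). Reads fell at the position in both genes, and in C5orf24 they also fell at the end.

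**Figure D3:**
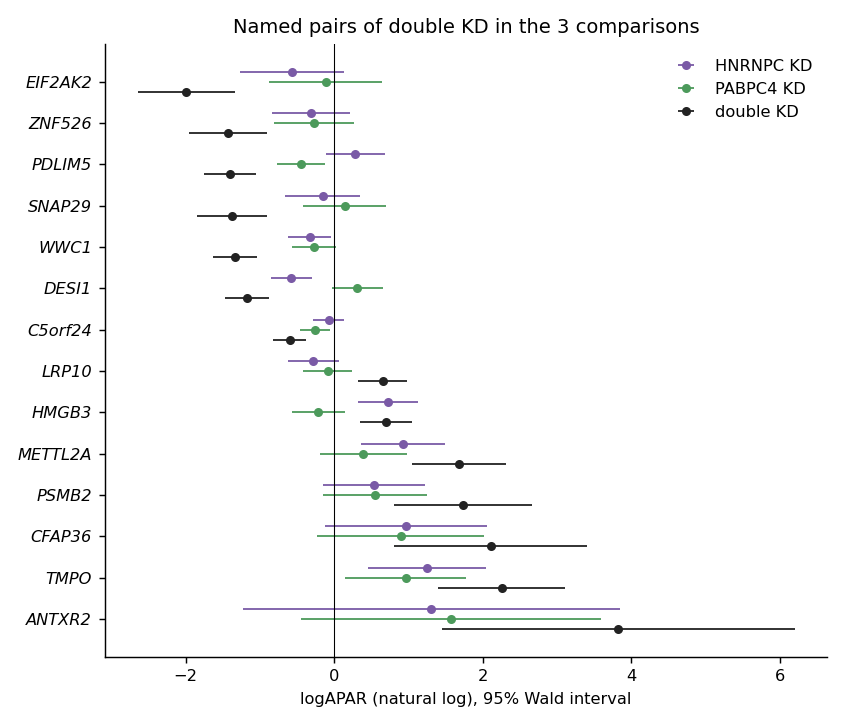
logAPAR (natural log, x axis) with 95% Wald intervals for 14 pairs named in double KD, 7 in each direction, in the 3 comparisons, which share the control. The double KD values lie left of both single KDs in all 7 genes that moved toward the distal end. They lie right of both in 6 of the 7 that moved toward the proximal position, HMGB3 being the exception. The pairs were chosen by their small p in double KD, which favours this order, so it is no test of double KD against the single KDs.

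Among the moves toward the proximal position the smallest p was that of METTL2A, which methylates cytidine in tRNA. Reads at chr17:60526737 were 31.3, 56.3, 38.1 and 57.3 in control, HNRNPC KD, PABPC4 KD and double KD, and at the distal end 71.6, 51, 59.1 and 24.4. logAPAR was 0.93 ± 0.29 in HNRNPC KD (p 0.00130, adjusted p 0.147) and 1.68 ± 0.32 in double KD (adjusted p 2.99e-05). Its other position, chr17:60526299, moved the same way in double KD (1.2 ± 0.3, adjusted p 0.00436), with 54.9 control and 62.3 double KD reads. Both positions are read against 1 end, whose loss enters both values.

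TMPO, the lamina-associated polypeptide of the inner nuclear membrane, had fewer reads at its distal end in each KD group than in control. That end had 142 reads in control, 90.2 under HNRNPC KD, 100.4 under PABPC4 KD and 31 under double KD, and the position chr12:98925617 had 9.84, 21.9, 18.2 and 20.5. Its logAPAR was 1.25 ± 0.41, 0.96 ± 0.42 and 2.26 ± 0.44, with an adjusted p of 3.35e-05 in double KD. Another annotated end of TMPO, ENST00000556029.5, had 35.2 reads in control and 36.4 in double KD. The share of gene reads at that other end rose from 18.8% to 41.4%. LRP10, a receptor of the low-density lipoprotein receptor family, kept its position at 85.1, 63, 70.4 and 84.9 reads, while the end had 747, 732, 676 and 389 (0.65 ± 0.17 in double KD, adjusted p 0.00623). In TMPO and LRP10 the distal end of the named pair thus fell most in double KD.

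HMGB3, a chromatin protein with HMG boxes, followed HNRNPC KD. Its end had 196, 80.1, 227 and 135 reads and its position chrX:150157242 had 86.3, 73, 80.8 and 119. The logAPAR of 0.73 ± 0.21 in HNRNPC KD (p 0.000428) was close to the 0.70 ± 0.18 of double KD (adjusted p 0.00804), and PABPC4 KD gave −0.21 ± 0.18. PSMB2, a subunit of the proteasome core, went from 97.6 to 137 reads at its position and from 24.5 to 6.07 at the end (1.73 ± 0.47, adjusted p 0.0150). Another annotated end of PSMB2, ENST00000373237.4, went from 10.6 to 20.9 reads, so the fall was not shared by its annotated ends. CFAP36 (2.11 ± 0.66, adjusted p 0.0597) and ANTXR2 (3.83 ± 1.21, adjusted p 0.0624) did not pass the adjusted threshold, and their lesser sites had 6.43 and 1.65 control reads.

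**Figure D4:**
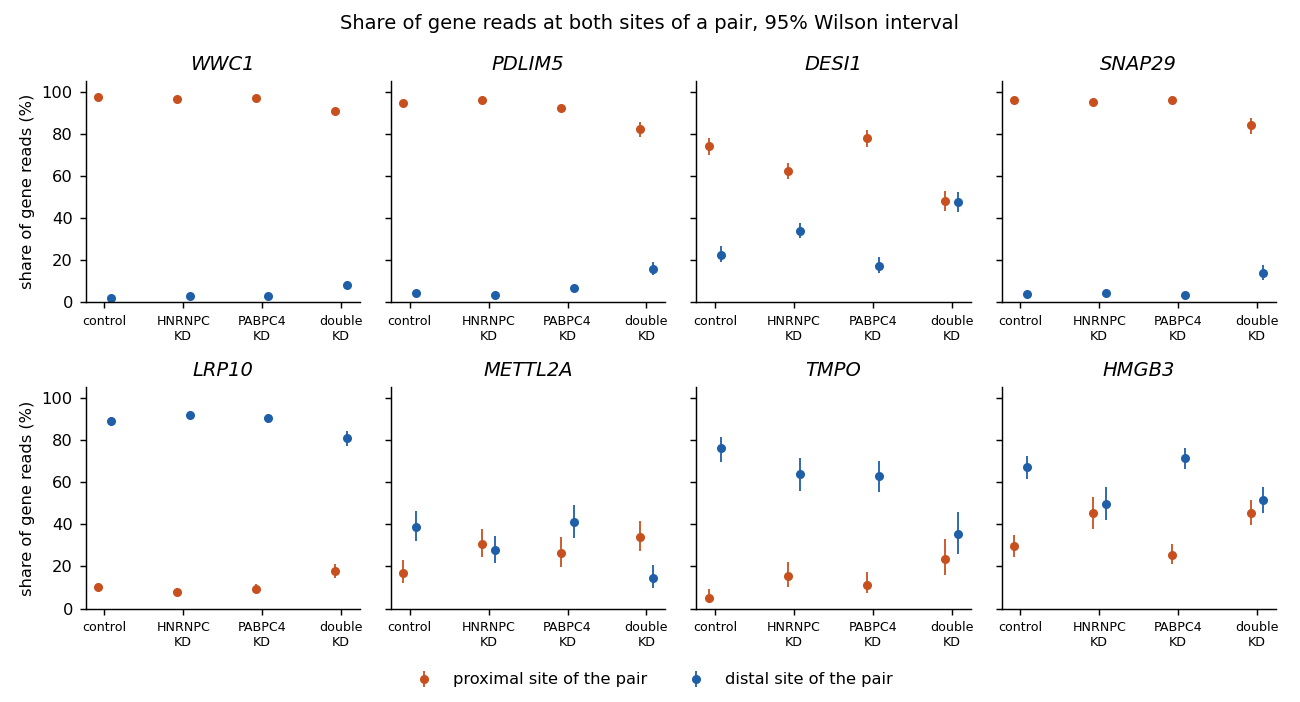
Share of gene reads (y axis, percent) at the proximal position (orange) and the distal end (blue) of a pair in the 4 groups, with 95% Wilson intervals that treat normalised reads as counts. All pairs shown were chosen by their small p in double KD. In the upper row (WWC1, PDLIM5, DESI1, SNAP29) the orange share is lowest in double KD. In the lower row (LRP10, METTL2A, TMPO, HMGB3) the blue share is lower in double KD than in control, and in METTL2A, TMPO and HMGB3 it is lower in HNRNPC KD too.

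In HNRNPC KD the smallest p among members belonged to BIRC5, which encodes the apoptosis inhibitor survivin. Its position chr17:76220780 had 229.7 reads in control, 116 under HNRNPC KD, 231 under PABPC4 KD and 206 under double KD, and its end 22, 42.4, 34.6 and 59.2. logAPAR was −1.34 ± 0.29 (adjusted p 0.00184), −0.45 ± 0.29 and −1.10 ± 0.27 (adjusted p 0.00333). The position was thus lowest with HNRNPC KD alone, and the end highest in double KD. SMIM7 (−0.69 ± 0.19), INF2, an actin-nucleating formin (−1.68 ± 0.49), and TRIOBP, an actin-bundling protein (−1.45 ± 0.43), also moved toward distal in HNRNPC KD, with adjusted p-values from 0.0626 to 0.113. The SMIM7 and INF2 distal ends belong to transcripts of the nonsense-mediated decay type. Toward proximal, HNRNPC KD moved ORAI2, a calcium channel subunit (0.71 ± 0.20), HMGB3, and the elongation factor ELL2 at chr5:95223063 (1.79 ± 0.51). HSP90AA1, a cytosolic chaperone (0.92 ± 0.26), and TMEM33 (2.67 ± 0.79) also moved this way. None of these passed an adjusted p of 0.05.

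Besides PDLIM5, PABPC4 KD moved MTDH, which encodes metadherin (−0.81 ± 0.30), and POLH, a DNA polymerase of lesion bypass (−2.01 ± 0.77), toward distal. Toward proximal moved ELL2 at chr5:95224042 (2.5 ± 0.75), HSP90AA1 (0.88 ± 0.27), PHLDA1, a pleckstrin homology domain protein (0.23 ± 0.07), and CEP350, a centrosome protein (1.36 ± 0.52). Every adjusted p of these 7 was at least 0.742. PHLDA1 was the deepest of them, with 7888 reads at its position in control and 8907 in PABPC4 KD, against 413 and 369 at the end. The ELL2 position chr5:95224042 had 2.69 control reads and a logAPAR of 2.86 ± 0.85 in HNRNPC KD. The other ELL2 position, chr5:95223063, had 74.4 control reads and 0.94 ± 0.39 in PABPC4 KD (deposited Wald p 0.0153). Counted over the comparisons, which share the control samples, 17 member pairs passed p 0.01 with HNRNPC KD as well as with double KD. With PABPC4 KD as well as with double KD 3 passed, and with double KD alone 41. HNRNPC KD had 34 called member pairs in all and PABPC4 KD 8, which limits these overlaps. The overlaps were not counted over all shared pairs, so they are not read as a trait of the members.

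To compare KD groups without the control, the double KD values were set against each single KD with errors from the reads of the groups that enter. Against PABPC4 KD, which asks for the effect of HNRNPC KD in PABPC4 KD cells, 57 member pairs passed p 0.01, of which 41 were lower and 16 higher in double KD. That is 5.43% of members, where 5.63% of the 2734 pairs with solved reads passed, 92 lower and 62 higher. At an adjusted p of 0.05 there were 23 (2.19% against 2.27%). DESI1 had the smallest p, with a difference of −1.49 ± 0.17 (adjusted p 1.17e-15), followed in order of p by WWC1 (−1.06 ± 0.15, adjusted p 6.23e-10), PDLIM5 (−0.95 ± 0.17, adjusted p 2.81e-06) and SNAP29 (−1.52 ± 0.27, adjusted p 5.09e-06). Higher were HMGB3 (0.91 ± 0.18, adjusted p 7.84e-05), METTL2A at chr17:60526299 (1.62 ± 0.33, adjusted p 9.56e-05), LRP10 (0.74 ± 0.17, adjusted p 0.00176) and UBE2H, a ubiquitin-conjugating enzyme (1.56 ± 0.38, adjusted p 0.00322).

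Against HNRNPC KD, which asks for the effect of PABPC4 KD in HNRNPC KD cells, 36 member pairs passed p 0.01, 27 lower and 9 higher. The share was 3.43% of members against 3.62% of the pairs with solved reads, and at an adjusted p of 0.05 it was 1.24% (13 pairs) against 1.43%. Of all pairs with solved reads past p 0.01, 60 were lower and 39 higher. PDLIM5 had the smallest p, with a difference of −1.69 ± 0.20 (adjusted p 2.01e-13). It was followed in order of p by WWC1 (−1.01 ± 0.15, adjusted p 5.80e-09), SNAP29 (−1.22 ± 0.24, adjusted p 0.000103) and TACC1, a coiled-coil protein of the spindle (−0.93 ± 0.19, adjusted p 0.000165). The TACC1 end had 42.6, 43.3, 47.9 and 122 reads in control, HNRNPC KD, PABPC4 KD and double KD, and its position 378, 473, 396 and 526. TACC1 was thus a case in which both sites were highest in double KD and the end rose more. Higher were LRP10 (0.93 ± 0.18, adjusted p 4.74e-05) and METTL2A at chr17:60526299 (1.07 ± 0.31, adjusted p 0.0484). MYO10, an unconventional myosin (1.83 ± 0.57, adjusted p 0.0780), and the transcription factor gene FOSL2 (0.97 ± 0.33, adjusted p 0.145) were higher at the unadjusted threshold. The member shares lay close to the background in both comparisons.

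The last comparison set double KD against the sum of both single KDs. Past p 0.01 were 21 member pairs (2%, where 2.38% of pairs with solved reads passed), 17 below the sum and 4 above. Over all pairs with solved reads, 38 lay below the sum and 27 above. At an adjusted p of 0.05 there were 5 (0.476% against 0.402%). PDLIM5 lay below the sum by −1.24 ± 0.26 (adjusted p 0.00273), with its single KDs on opposite sides of 0. DESI1 lay below it by −0.91 ± 0.22 and LRP10 above it by 1.02 ± 0.25 (adjusted p 0.0127 each).

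ORAI2 and HSP90AA1 also lay below the sum. ORAI2 had 199.9, 162, 163 and 54.6 reads at chr7:102090185 and 125, 49.8, 87.6 and 52.4 at its distal end, a logAPAR of 0.71 with HNRNPC KD and −0.43 ± 0.22 with double KD, and a departure of −1.29 ± 0.31 (adjusted p 0.0127). HSP90AA1 had 19.2, 61, 45.8 and 48.4 reads at chr14:102550807 beside 2353 to 3592 at its end, with a departure of −1.28 ± 0.34 (adjusted p 0.0324). All KD groups of HSP90AA1 thus lay above control at the position and near each other. With the Wald variances of the comparisons added, none of the 5 kept an adjusted p under 0.05, the values running from 0.0746 to 0.717. These variances count the error of the shared control anew for each comparison. The main test of the departure also holds that error, but without repeats. At the larger error 12 member pairs passed the unadjusted p of 0.01.

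Gene groups were read from 9 lists of symbols, each by its member pairs past p 0.01 in double KD, beside the 4.33% of all pairs. In the cytoskeleton and adhesion list, 5 of 31 pairs passed in 4 of 17 genes, 3 toward distal (among them PDLIM5 and the kinesin gene KIF1C, −1.07 ± 0.39) and 2 toward proximal, both in MYO10. The MYO10 end had 21.1 reads in control, 15.9 under HNRNPC KD, 23.1 under PABPC4 KD and 4.95 under double KD, and its 3 positions had logAPAR of 1.38, 1.49 and 1.63 in double KD, the last with a p of 0.0469. The low end of MYO10 in double KD enters all 3 values. In the membrane trafficking list 4 of 43 passed. Of these, SNAP29 and TMED4, a cargo receptor of the early secretory pathway (−1.75 ± 0.56), went toward distal, and SEC24B, a coat protein of ER export vesicles (1.06 ± 0.40), and the retromer subunit gene VPS29 (1.82 ± 0.71) toward proximal. In the mitochondria and translation list 3 of 21 passed, EIF2AK2 and the import receptor gene TOMM20 (−0.72 ± 0.27) toward distal and the initiation factor gene EIF5 (1.68 ± 0.60) toward proximal. The EIF5 distal end belongs to a transcript of the retained-intron type. Members of these lists moved both ways.

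In the ubiquitin and proteasome list 4 of 60 pairs passed. The ligase genes TRIM56 (−1.13 ± 0.26, adjusted p 0.00174) and SMURF2 (−0.75 ± 0.29) went toward distal, and PSMB2 and the ligase gene NEDD4L (2.53 ± 0.88) toward proximal. The kinase and phosphatase list had 1 of 53, CAMKK2, a kinase upstream of AMPK (−1.15 ± 0.34, adjusted p 0.0402). The chromatin and transcription list had 1 of 55, ZNF526, and the solute carrier and channel list 1 of 41, TMEM33 (1.72 ± 0.62). Of the 20 pairs of 3′ end processing and mRNA fate genes only TIAL1, an RNA-binding protein that binds U-rich mRNA, passed (0.85 ± 0.32, p 0.00756). Among 30 pairs of splicing factors and RNA helicases no deposited p lay under 0.01 in double KD. An unadjusted p under 0.05 was found at 5 of them, and at 135 of all 1050 member pairs. AGO2, the Argonaute protein of small RNA silencing that the study singles out, had 2 member pairs with logAPAR of 0.26 ± 0.36 and 0.10 ± 0.29 in double KD, neither past p 0.01.

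At sites under 20 reads, 76.2 to 83.1% of the solved values per group fell on sums of whole reads from 2 libraries. The split into the reads of each library was unique for nearly all of these values, except in HNRNPC KD, where it was unique for 672 of 1192. The examples have a unique split, and which sample a library is cannot be told. The EIF5 position chr14:103805230 had 2 and 2 reads in the deeper and the shallower control library, 7 and 7 under PABPC4 KD and 14 and 11 under double KD. The ELL2 position chr5:95224042 had 1 and 2 in control and 7 and 9 in PABPC4 KD. The NEDD4L position chr18:56063938 had 1 and 2 in control and 5 and 10 in double KD. At these positions both libraries of the KD group had more reads than both control libraries, while the distal ends were not split in every group, so the shift of a pair per library is not given.

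Other low sites were uneven. The CFAP36 position chr2:55761096 had 1 and 6 in control and 11 and 3 in double KD, and that of ANTXR2, chr4:80823797, had 2 and 0 in control and 3 and 11 in double KD. A FOSL2 position outside the named pairs, chr2:28637516, chosen after its values were seen, had 4 and 1 in control and 2 and 19 in double KD. The distal end of the PSMB2 pair had 7 and 1 in double KD and was not split in control. At these sites of CFAP36, ANTXR2, FOSL2 and PSMB2, 1 library of double KD carried most reads.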

How the data were processed

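The 8 samples were grouped by their titles. Reads were counted per poly(A) site with Salmon 0.14.1 by the authors, and the submitters' notes also name UMI-tools and hg38. APAlog, a multinomial logistic regression, gave the values. The deposited values are natural log (ln) fold changes (logAPAR), p-values and q-values (adjusted p-values) per site pair, from the authors' own comparisons with a shared control. There are 0 columns of per-sample values, so no model was refitted. The PABPC4 KD comparison was assigned by elimination from its name. Total depth per library is unknown.

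Wald errors came from logAPAR and p. Reads per site were solved at genes with at least 3 shared sites, taking each variance as the sum of inverse reads, with a median misfit of 0.00438% over 681 genes. Differences between KD groups used these reads and a two-sided Wald test, with Benjamini-Hochberg adjustment over 2734 pairs. The script was tested on simulated data. Tools were Python 3.11.15, numpy 2.4.6, scipy 1.17.1 and pandas 2.3.3.

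Named pairs were those past p 0.01, 1 per gene with the smallest p: 8 per direction for double KD, 5 for HNRNPC KD, 4 for PABPC4 KD and 4 for each difference between KD groups, with departures from the sum past an adjusted p of 0.05, pairs past p 0.01 in all 3 comparisons, genes the study follows up and list members past p 0.01 in double KD. Some of the pairs this rule selects are not reported here. The members, lists and rules were chosen with earlier results of these data known. Alternatives were an adjusted p of 0.05, p 0.001, 1 pair per gene, at least 10 control reads at both sites, an absolute logAPAR of at most 5, an upper-bound error and other signal windows.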

Additional observations from a re-analysis of the deposited data

Results flagged for a closer look

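In 5 member pairs the effect of HNRNPC KD differed between cells with control guides and PABPC4 KD cells, by the Wald test of double KD against the sum of both single KDs (adjusted p under 0.05). The departure was −1.24 in PDLIM5 (adjusted p 0.00273), where the effect of HNRNPC KD was 0.29 against control and −0.95 against PABPC4 KD. It was −1.29 in ORAI2 (0.71 and −0.58 in the same order), −0.91 in DESI1 (−0.58 and −1.49) and 1.02 in LRP10 (−0.28 and 0.74), each with an adjusted p of 0.0127. It was −1.28 in HSP90AA1 (0.92 and −0.37, adjusted p 0.0324). With the Wald variances of the comparisons added, an upper bound, none of the 5 kept its call, with adjusted p-values from 0.0746 to 0.717. The tests cover counting error only.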

How the results depend on the processing

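No paired analysis was possible because the comparisons carry no values per sample and the library reads recovered at low sites cannot be tied to a replicate number, and no sample could be left out for the same reason. An adjusted p of 0.05 gave 2 member pairs for HNRNPC KD, 0 for PABPC4 KD and 29 for double KD, and 23, 13 and 5 in double KD minus PABPC4 KD, minus HNRNPC KD and minus the sum. At p 0.001 the counts were 14, 1 and 29. With 1 pair per gene, HNRNPC KD had 22 and PABPC4 KD 4, and with at least 10 reads at both sites PABPC4 KD had 5. Upper-bound errors left 16, 14 and 12 pairs in the differences. Multiplying variances by 1.33, the highest ratio of spread to counting error between libraries of a group at low sites (chosen after seeing the data), left 3 for PABPC4 KD, 39 for double KD and 31, 18 and 12 in the differences. That ratio came from sites under 20 reads but was applied to all pairs. Spread between libraries at deeper sites was not measured, so these counts do not cover it. The median share at the proximal position was 8.54% in genes with at least 50 control reads. The signal share was 69.5% in the last 30 nt and 63.9% for AATAAA alone. Of 45 such alternative values 22 stayed within 1.5 times the count or the interval of the value. Of 62 named calls 23 held at an adjusted p of 0.05. Each alternative used a stricter threshold, fewer pairs, larger errors or a narrower definition of the signal or of the genes by construction.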

Other observations

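Reads reconstructed at sites under 20 reads fell on whole-read sums of 2 libraries (relative tolerance 0.0005) for 78.4% of values in control, 83.1% under HNRNPC KD, 76.2% under PABPC4 KD and 77.2% under double KD. A read of the deeper and the shallower library counted as 0.827 and 0.933 normalised reads in control, 0.722 and 0.962 under HNRNPC KD, 0.831 and 0.944 under PABPC4 KD and 0.744 and 0.866 under double KD. The split of a gene's sites between the libraries had a dispersion of 0.941 times counting error in control (359 genes), 1.02 under HNRNPC KD (170 genes), 1.33 under PABPC4 KD (343 genes) and 1.31 under double KD (333 genes), where a value above 1 is spread beyond the counting error on which the deposited p-values rest.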
